A study of Mus musculus with 19 samples.

Results

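AMP-activated protein kinase (AMPK) and the mechanistic target of rapamycin complex 1 (mTORC1) are the opposing kinase systems by which cells read their energy and amino acid supply, and 10 genes that encode parts of them were examined in small intestinal crypts of fed and fasted mice. They were Stk11, Prkaa1, Prkaa2, Prkab1, Mtor, Rptor, Tsc1, Tsc2, Depdc5 and Castor1, taken as a set by name and matched by symbol to the Ensembl identifiers of the deposited gene files. All 10 were among the 55487 genes listed, and 9 were among the 17875 genes with enough counts to be tested. Castor1 was the exception.

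RNA came from the crypts of 19 C57BL/6 mice, 1 library per mouse. Crypts are the epithelial pits that hold the intestinal stem cells and their dividing progeny. The groups were NT+/+ mice fed ad libitum (n = 5), NT-/- mice fed likewise (n = 4), NT+/+ mice fasted for 48 hours (n = 5) and NT-/- mice fasted for 48 hours (n = 5), where NT-/- mice lack neurotensin, a gut peptide that enteroendocrine cells release after a fatty meal. The knockout is present in all cells. The paper isolated crypts from the proximal part of the small intestine, leaving out the most distal part. In tissue sections of NT-/- mice it reports fewer proliferating cells and more goblet cells in distal crypts, without such changes in proximal ones. The study describes NT+/+ and NT-/- mice that carry an Lgr5-EGFP reporter allele, and its fed controls as littermates matched for sex and age. By the labels each group held female and male mice, and 1 fasted NT-/- mouse had no sex label. The genotype field of 1 mouse, NT+/+ Fast 5, contradicted its title. Nts, the neurotensin gene, was at 4.98 to 5.71 CPM, a gene's counts scaled to library size, in the fasted NT+/+ mice by title, this mouse included. That lay above the range of 0.144 to 0.793 CPM over both NT-/- groups. The mouse was kept in the group that its title gives.

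In an AMPK complex a catalytic alpha subunit is joined to a beta scaffold and a nucleotide-binding gamma subunit, and the liver kinase B1 encoded by Stk11 phosphorylates alpha when AMP rises against ATP. Active AMPK restrains mTORC1 by phosphorylating tuberin, encoded by Tsc2, and raptor, encoded by Rptor. Amino acids act on mTORC1 through the lysosomal Rag GTPases, which the GATOR1 complex switches off and which arginine releases through the sensor CASTOR1. In the intestine, mTORC1 in stem cells and in the neighboring Paneth cells has been linked to how crypts respond to food supply. These kinases are governed by phosphorylation and binding, which RNA levels do not measure.

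Libraries held 9059457 to 35068711 counts. In same-group pairs of libraries the correlation of log2 CPM across genes was 0.966 to 0.986. The 4 libraries numbered 1, 1 per group, stood apart from the other libraries of their groups on the second principal component of all tested genes (12.5% of the variance), with scores from 17.9 to 51.6 against -26.4 to 11.0 in the other 15. Defining crypt genes were present in every group: 5 stem cell markers summed to 965 to 2753 CPM and 5 Paneth cell markers to 14848 to 36920 CPM, while 5 stromal, 5 smooth muscle and 5 endothelial markers summed to at most 4.53, 6.64 and 4.41 CPM. The 6 immune cell markers were not near 0 and summed to 279 to 822 CPM.

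The DNA just upstream of the start sites is shown for 4 of the genes, namely the 3 with the smallest p for fasting and Prkaa2, the second alpha subunit gene, which is compared with Prkaa1 below. RefSeq promoters of GRCm38.p6 were matched for all 10 genes. Each run is the 250 bases before the annotated start, read 5′ to 3′ on the gene's strand, and capitals mark a GC box (GGGCGG) or a CCAAT box (CCAAT) on either strand, with adjoining or overlapping matches written as 1 run. The regions are chr10:80115545-80115794 (+ strand), chr5:32863471-32863720 (+ strand), chr15:5143611-5143860 (+ strand) and chr4:105109899-105110148 (- strand).
Stk11: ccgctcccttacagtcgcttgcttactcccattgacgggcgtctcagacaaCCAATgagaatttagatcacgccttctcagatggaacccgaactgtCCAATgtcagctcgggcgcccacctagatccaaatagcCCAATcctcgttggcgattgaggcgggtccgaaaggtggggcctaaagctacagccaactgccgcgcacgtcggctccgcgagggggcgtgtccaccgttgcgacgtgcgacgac
Depdc5: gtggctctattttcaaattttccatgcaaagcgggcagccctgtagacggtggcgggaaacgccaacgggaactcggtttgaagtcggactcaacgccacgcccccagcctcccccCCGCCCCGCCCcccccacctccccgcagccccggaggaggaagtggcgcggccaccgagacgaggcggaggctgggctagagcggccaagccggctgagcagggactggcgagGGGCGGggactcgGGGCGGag
Prkaa1: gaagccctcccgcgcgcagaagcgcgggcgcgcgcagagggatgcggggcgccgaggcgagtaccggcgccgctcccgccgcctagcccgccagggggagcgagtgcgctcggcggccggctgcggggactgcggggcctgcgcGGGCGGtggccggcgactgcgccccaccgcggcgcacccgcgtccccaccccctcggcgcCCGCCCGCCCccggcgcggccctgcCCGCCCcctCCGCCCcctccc
Prkaa2: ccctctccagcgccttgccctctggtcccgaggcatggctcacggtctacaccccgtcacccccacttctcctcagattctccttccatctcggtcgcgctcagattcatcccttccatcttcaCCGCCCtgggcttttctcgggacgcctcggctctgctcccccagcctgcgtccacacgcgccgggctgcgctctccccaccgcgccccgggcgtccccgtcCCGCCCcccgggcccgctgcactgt

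The GC content of these runs was 59.6% for Stk11, 70.0% for Depdc5, 85.2% for Prkaa1 and 70.0% for Prkaa2, against a median of 52.4% over all 32851 RefSeq promoters. GC boxes occurred in 5 of the 10 promoters (Castor1, Depdc5, Mtor, Prkaa1 and Prkaa2) and in 32.7% of all promoters. CCAAT boxes occurred in those of Stk11 and Mtor and in 33.8% of all promoters. In the Prkaa1 promoter there were 5 GC boxes, in that of Prkaa2 2, and in that of Stk11 none but 3 CCAAT boxes. The E-box CACGTG (6.02% of all promoters), the longer CLEAR element that contains it (0.24%), the cyclic AMP response element TGACGTCA (1.55%), the FOXO site TGTTTAC (3.17%) and the NRF1 site (0.782%) had no match on either strand in any of the 10 windows. The short motif TGACG, which the cyclic AMP response element contains, was found in 4 of the 10 (Prkaa2, Rptor, Stk11 and Tsc1) and in 17.8% of all promoters.

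Per transcript length, Castor1 lay far below the other genes. In TPM, transcript abundance scaled for length, by which levels of different genes can be compared, Stk11 was highest (lowest, median and highest mouse: 32.9, 42.8 and 52.6 TPM), followed by Prkab1 (28.2, 36.0 and 43.5) and Tsc2 (19.99, 27.3 and 36.3). Rptor had a median of 19.4 TPM, Depdc5 13.7, Mtor 13.6, Prkaa1 11.5, Tsc1 10.8 and Prkaa2 8.17. The ranges over mice overlapped between each of these 9 genes and the next in the order. Castor1 lay between 0.06 and 0.52 TPM.

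**Figure D1:**
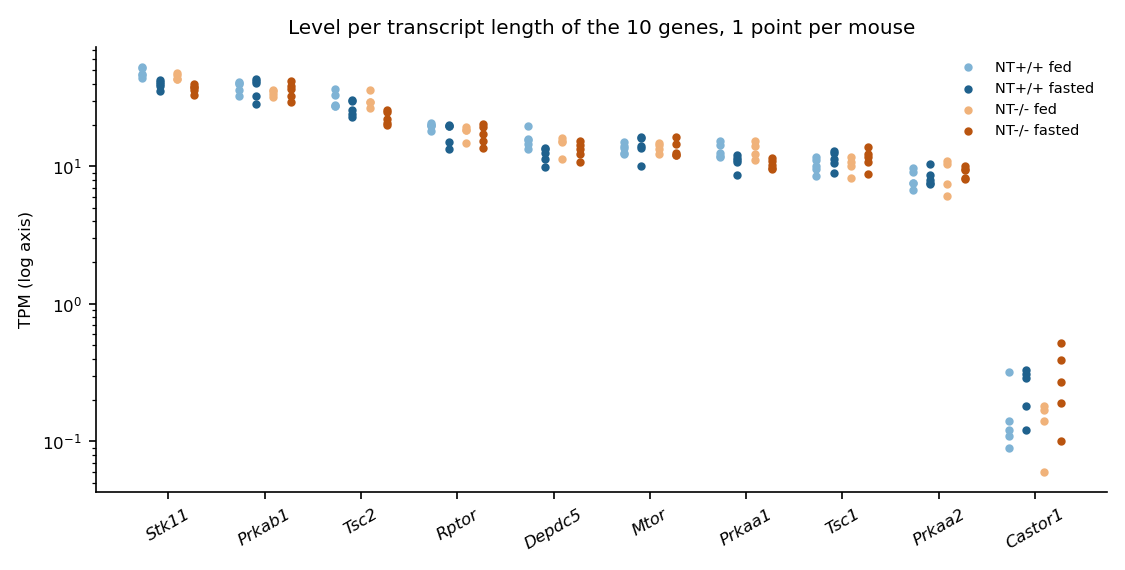
Level of each of the 10 genes in TPM on a log axis, 1 point per mouse, colored by group, with genes ordered from high to low. All but Castor1 lie between 6.12 and 52.6 TPM in each of the 19 mice, and Castor1 lies at 0.52 TPM or below.

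The genes varied little between mice of a group. The within-group SD of log2 CPM was 0.07 for Mtor, lower than in all but 0.492% of the tested genes, and 0.09 for Rptor, 0.10 for Depdc5, 0.11 for Stk11, Tsc2 and Prkab1 and 0.12 for Tsc1. The alpha subunit genes varied most, at 0.16 for Prkaa1 and 0.18 for Prkaa2, still under the median of 0.25 over all tested genes. Small differences between groups could therefore pass the test in these genes.

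The first question was whether 48 hours without food altered the genes. Averaged over both genotypes, Prkaa1 fell by 17.1%, Stk11 fell by 16.04% and Depdc5 fell by 14.8%. Smaller differences passed for the mTORC1 genes: Tsc2 fell by 8.82%, Rptor fell by 8.30% and Mtor fell by 6.88%. None rose, and Prkaa2, Tsc1 and Prkab1 did not pass the test. Thus 6 of the 9 tested genes were lower (edgeR's quasi-likelihood test, Benjamini-Hochberg adjusted p under 0.05), where 20.2% of all tested genes were lower and 39.4% changed in either direction. The median log2 fold change of the 9 genes was -0.13 against -0.02 over all tested genes. The direction of the estimate was the same in NT+/+ and NT-/- mice for all 9 genes. Within each genotype fewer passed: 2 of 9 were lower in NT+/+ mice (Stk11 and Depdc5), where 10.4% of all tested genes were lower and 21.6% changed, and 3 of 9 in NT-/- mice (Stk11, Depdc5 and Prkaa1), where the shares were 12.6% and 25.2%. In each genotype 0 of 9 rose. The numbers in the file names paired the mice of each comparison by the correlation of their deviations from the group means, and with that number as a block 6 of 9 were lower in NT-/- mice (Mtor, Rptor and Tsc2 in addition) and 3 of 9 in NT+/+ mice (Prkaa1 in addition).

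These counts moved with the libraries in the fit. Leaving out 1 mouse at a time gave 3 to 6 lower genes for the average of both genotypes, 0 to 2 for NT+/+ mice (0 without replicate 3 of either NT+/+ group) and 1 to 3 for NT-/- mice (1 without ad libitum-fed NT-/- replicate 2). Without the 4 libraries numbered 1 the counts were 4, 1 and 2. Stk11, Depdc5 and Prkaa1 kept adjusted p values of at most 0.0025, 0.00424 and 0.0134 for the average of both genotypes in each of the 19 fits that left out 1 mouse, while Mtor, Rptor and Tsc2 reached 0.106, 0.0891 and 0.106.

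**Figure D2:**
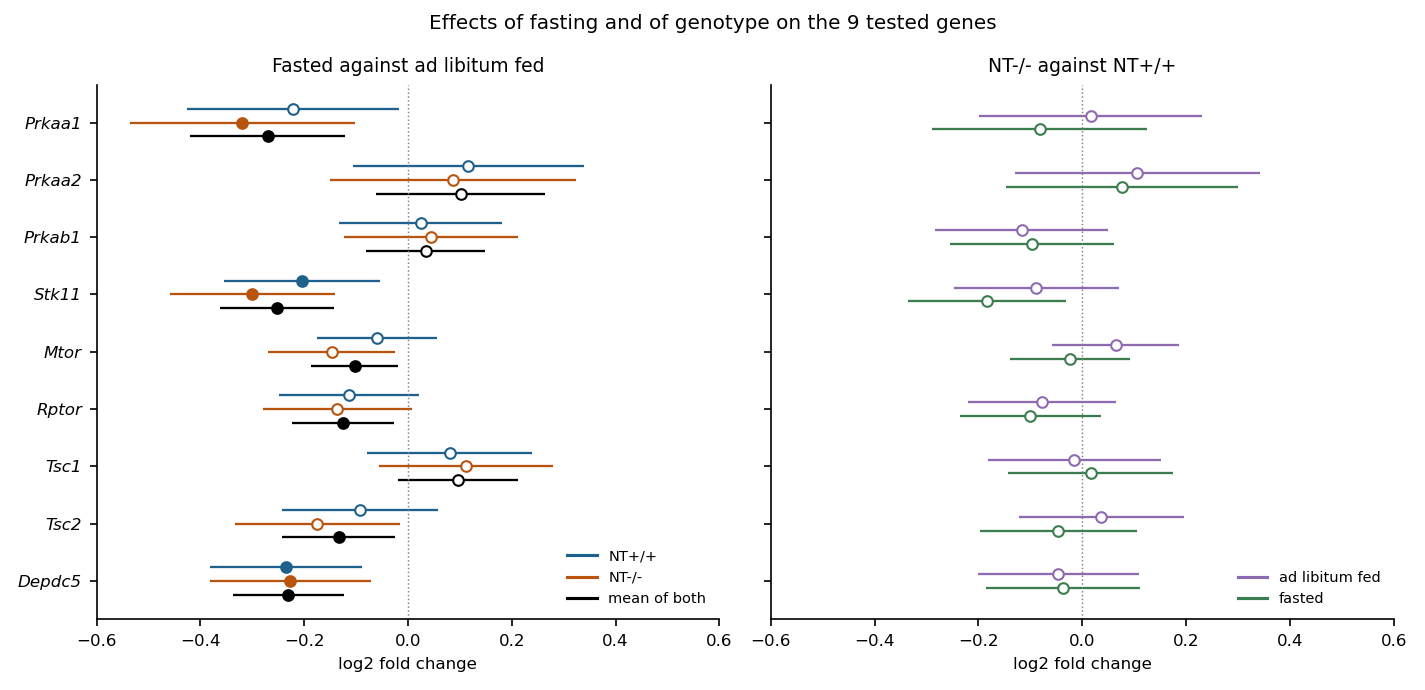
Log2 fold changes of the 9 tested genes with 95% intervals, for fasting on the left and for genotype on the right. Filled points have an adjusted p under 0.05: 6 for fasting as the mean of both genotypes, 2 in NT+/+ and 3 in NT-/- mice, and 0 for genotype.

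Stk11 (chr10:80115803-80130682, + strand, GRCm38), the gene of the kinase upstream of AMPK, was at 87.2, 69.5, 81.6, 75.5 and 73.1 CPM in ad libitum-fed NT+/+ mice and at 74.1, 64.6, 66.1, 65.2 and 65.6 CPM in fasted NT+/+ mice. Its values in NT-/- mice were 80.2, 68.8, 74.2 and 67.6 CPM when fed and 65.9, 56.8, 54.9, 58.5 and 59.1 CPM when fasted. The fed and fasted ranges overlapped in NT+/+ mice and did not overlap in NT-/- mice, as was the case for 21.3% of all tested genes there. The log2 fold change was -0.20 ± 0.07 (SE; adjusted p = 0.0474, edgeR) in NT+/+ mice and -0.30 ± 0.08 (adjusted p = 0.00675) in NT-/- mice. Among all 9 genes Stk11 had the smallest p for the average of both genotypes, with a log2 fold change of -0.25 ± 0.05 (adjusted p = 0.000731). In NT+/+ mice alone the call was lost in 12 of the 19 fits that left out 1 mouse (adjusted p up to 0.137) and under 6 other alternatives (adjusted p from 0.0523 to 0.115). The mouse numbered 1 was the highest in each of the 4 groups. Without those 4 mice the average log2 fold change was -0.23 (adjusted p = 0.00114). Exons of Stk11 share 232 bases with Cbarp on the opposite strand, 12.9% of the effective length of Stk11, and the strand setting of the counting is not given in the sources used here. Cbarp did not pass the test for fasting (log2 fold change 0.06, adjusted p = 0.769).

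Prkaa1 (chr15:5143861-5181899, + strand), which encodes the catalytic alpha 1 subunit of AMPK, was at 58.4, 57.0, 51.1, 45.5 and 53.6 CPM in ad libitum-fed NT+/+ mice and at 52.6, 44.0, 37.7, 41.7 and 52.0 CPM after fasting, and the ranges overlapped. In NT-/- mice it was at 51.6, 54.9, 52.0 and 56.6 CPM when fed and at 48.9, 40.7, 38.9, 37.9 and 48.6 CPM when fasted, with each fasted mouse below each fed one. Fed and fasted NT-/- mice did not overlap for 21.3% of all tested genes. The log2 fold change was -0.22 ± 0.10 (adjusted p = 0.116) in NT+/+ mice and -0.32 ± 0.10 (adjusted p = 0.0294) in NT-/- mice. Blocking by replicate number gave an adjusted p in NT+/+ mice of 0.0359 by the titles and 0.0190 by the file names. Its call in NT-/- mice was lost in 5 of the 19 fits that left out 1 mouse (adjusted p up to 0.0753), and when NT+/+ Fast 5, the mouse with contradictory labels, was counted as NT-/- (adjusted p = 0.0620).

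Prkaa2 (chr4:105029874-105109890, - strand), the gene of the alpha 2 subunit, did not pass the test. It was at 61.6, 62.5, 50.7, 50.2 and 58.5 CPM in fed and 60.5, 69.2, 57.2, 50.5 and 70.1 CPM in fasted NT+/+ mice, and at 49.1, 70.2, 55.1 and 70.1 CPM in fed and 67.0, 65.2, 58.0, 65.0 and 68.9 CPM in fasted NT-/- mice. The groups overlapped in both genotypes. The average log2 fold change was 0.10 (95% interval -0.06 to 0.26, adjusted p = 0.323).

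The balance of the alpha subunit genes shifted toward Prkaa2 in fasted mice of both genotypes. Within a mouse, the share Prkaa2 / (Prkaa1 + Prkaa2) was taken from TPM, so that no scaling between mice enters it. It was 37.7%, 38.6%, 36.3%, 38.8% and 38.5% in ad libitum-fed NT+/+ mice and 39.8%, 47.5%, 46.5%, 41.1% and 43.6% in fasted NT+/+ mice. The NT-/- mice had shares of 35.3%, 42.3%, 37.8% and 41.6% when fed and 44.1%, 47.9%, 46.2%, 49.6% and 44.9% when fasted. In neither genotype did a fasted mouse overlap the fed mice. The means were 38.0% ± 1.03 (SD, n = 5) and 43.7% ± 3.35 (SD, n = 5) in NT+/+ mice, a difference of 5.72 percentage points (2-sided exact permutation test, p = 0.00794, adjusted over 8 tests p = 0.0317). For NT-/- mice they were 39.3% ± 3.30 (SD, n = 4) and 46.5% ± 2.25 (SD, n = 5), a difference of 7.26 points (exact permutation p = 0.00794, adjusted p = 0.0317). This p is the smallest that groups of these sizes can give. Leaving out 1 mouse at a time kept the differences between 4.77 and 6.70 points and between 5.94 and 8.28 points. In 14 of the 19 such tests for each genotype the adjusted p was above 0.05 (exact permutation, up to 0.0952 and 0.114). With any NT-/- mouse left out, the smallest p that the NT-/- groups can give did not pass the adjustment over 8 tests. The NT+/+ p then failed the adjustment too, although all NT+/+ mice remained. In those fits the loss was set by group size. The remaining losses came with an NT+/+ mouse left out, where the smallest p of the groups could still have passed. Because the groups did not overlap, any pairing of fed and fasted mice gives the higher share after fasting in every pair. Pairs by the title numbers, 5 in NT+/+ and 4 in NT-/- mice, therefore add no support. The smallest exact permutation p of such pairs is 0.0625 and 0.125. The difference between the genotypes in this shift was not tested.

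**Figure D3:**
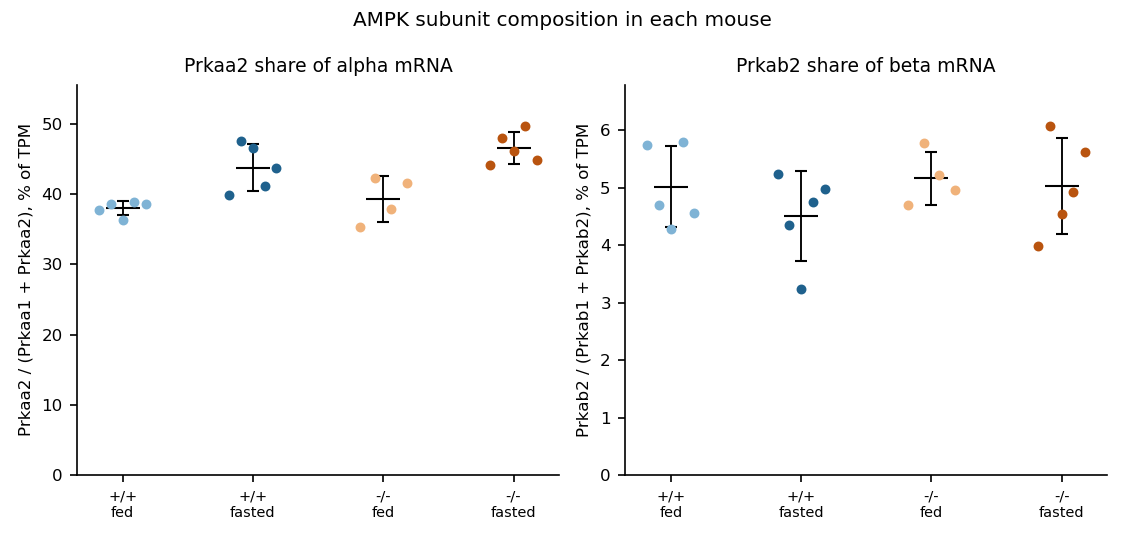
Share of Prkaa2 in alpha subunit TPM (left) and of Prkab2 in beta subunit TPM (right), in percent, 1 point per mouse, with the mean and SD of each group. Fasted mice lie above the fed mice of their genotype on the left (43.7% against 38.0% and 46.5% against 39.3%), and the groups overlap on the right.

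Prkab1 (chr5:116013586-116024508, - strand), which encodes the beta 1 scaffold, lay between 38.7 and 52.2 CPM over all mice. The fed and fasted groups overlapped in both genotypes, and its average log2 fold change was 0.03 (95% interval -0.08 to 0.15, adjusted p = 0.656). Its paralog Prkab2 made up a small part of beta subunit TPM, with group means of 5.02% ± 0.708 and 4.51% ± 0.780 (SD) in fed and fasted NT+/+ mice and 5.17% ± 0.461 and 5.03% ± 0.835 in NT-/- mice. The beta share did not pass in any of the 4 comparisons (exact permutation tests, adjusted p from 0.546 to 0.762).

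Among the mTORC1 genes, Mtor (chr4:148448611-148557683, + strand), the kinase itself, was at 91.8, 84.1, 91.2, 83.4 and 83.1 CPM in fed and 86.4, 85.8, 83.6, 82.0 and 78.6 CPM in fasted NT+/+ mice. Mtor in NT-/- mice was at 92.4, 95.3, 86.0 and 89.1 CPM when fed and 85.3, 82.5, 77.5, 77.1 and 86.9 CPM when fasted. The groups overlapped in both genotypes, in NT-/- mice only at the lowest fed mouse. Its fold change was the smallest of the called ones, -0.10 ± 0.04 on the log2 scale for the average (adjusted p = 0.0489), and neither genotype alone passed (adjusted p = 0.489 and 0.0731), although NT-/- mice did with the file-name number as a block (adjusted p = 0.0436). Rptor (chr11:119602905-119899576, + strand), the substrate-recruiting subunit raptor, ranged from 73.8 to 88.9 CPM in fed and from 67.9 to 84.4 CPM in fasted NT+/+ mice, and from 72.5 to 80.7 and from 66.9 to 73.3 CPM in NT-/- mice. The average log2 fold change was -0.13 ± 0.05 (adjusted p = 0.0412). In NT-/- mice alone the adjusted p of Rptor was 0.159, and 0.0272 with that block. Rptor shares 84 exonic bases with the antisense gene Rptoros, 1.82% of its effective length, and Rptoros did not pass (adjusted p = 0.474). Both calls were lost when no filter on low counts was applied (adjusted p = 0.119 for Mtor and 0.0811 for Rptor) and with DESeq2's Wald test (0.0737 and 0.0587). Leaving out 1 mouse at a time lost them in 12 (Mtor) and 13 (Rptor) of the 19 fits. Without the 4 libraries numbered 1 they were lost too (edgeR, adjusted p = 0.183 and 0.184).

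The genes of the tuberous sclerosis complex, which holds mTORC1 in check through the GTPase Rheb, did not move together. Tsc2 (chr17:24595816-24632630, - strand) was at 84.2, 76.5, 80.9, 80.7 and 72.7 CPM in fed and 81.5, 71.9, 73.4, 73.4 and 70.4 CPM in fasted NT+/+ mice, and at 86.4, 84.5, 80.1 and 73.1 CPM in fed and 83.5, 70.3, 63.3, 69.1 and 72.5 CPM in fasted NT-/- mice. Here too the groups overlapped and the mouse numbered 1 was the highest of each group. The average log2 fold change was -0.13 ± 0.05 (adjusted p = 0.0494), at the edge of the threshold and above it in 15 of the 19 fits that left out 1 mouse. In NT-/- mice alone the adjusted p of Tsc2 was 0.101, and 0.0435 with the file-name number as a block. Exons of Tsc2 share 693 bases with Pkd1 on the opposite strand, 22.3% of its effective length, and Pkd1 itself did not pass (log2 fold change -0.07, adjusted p = 0.373). Tsc1 (chr2:28641228-28691167, + strand), the gene of the stabilizing partner hamartin, ranged from 45.8 to 55.2 CPM in fed and from 46.6 to 59.4 CPM in fasted NT+/+ mice, and from 46.0 to 55.0 and from 51.6 to 58.3 CPM in NT-/- mice. Its average log2 fold change was 0.10 (95% interval -0.02 to 0.21, adjusted p = 0.180).

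Depdc5 (chr5:32863701-32994236, + strand), the GATOR1 subunit that acts on the Rag GTPases when amino acids are short, was at 39.2, 38.7, 43.7, 34.4 and 40.4 CPM in fed and 35.5, 35.5, 31.3, 32.4 and 32.1 CPM in fasted NT+/+ mice. Depdc5 in NT-/- mice was at 34.5, 40.6, 40.0 and 37.2 CPM when fed and 30.9, 33.0, 33.4, 34.6 and 30.8 CPM when fasted. In both genotypes only the lowest fed mouse lay within the fasted range. The size of the difference was nearly the same in both, with log2 fold changes of -0.23 ± 0.07 (adjusted p = 0.0210) in NT+/+ and -0.23 ± 0.07 (adjusted p = 0.0313) in NT-/- mice. In NT+/+ mice the call was lost in 2 and in NT-/- mice in 4 of the 19 fits that left out 1 mouse (adjusted p up to 0.0643 and 0.104). It was also lost in NT+/+ mice without a filter on low counts (0.0561), and in NT-/- mice without a filter (0.0591), with a term for sex (0.0757), with only the groups compared (0.0635) and without the libraries numbered 1 (0.0581). For the average of both genotypes it was -0.23 ± 0.05 (adjusted p = 0.00130).

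Castor1 (chr11:4218225-4222409, + strand), the arginine sensor, had 93 counts over all 19 mice, from 2 to 12 in a mouse, and was not tested. It was at 0.144, 0.133, 0.198, 0.406 and 0.145 CPM in fed and 0.174, 0.409, 0.412, 0.400 and 0.280 CPM in fasted NT+/+ mice, and at 0.0885, 0.216, 0.193 and 0.213 CPM in fed and 0.160, 0.227, 0.694, 0.493 and 0.370 CPM in fasted NT-/- mice. The groups overlapped in both genotypes, and the counts were too few to pass the filter for testing.

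**Figure D4:**
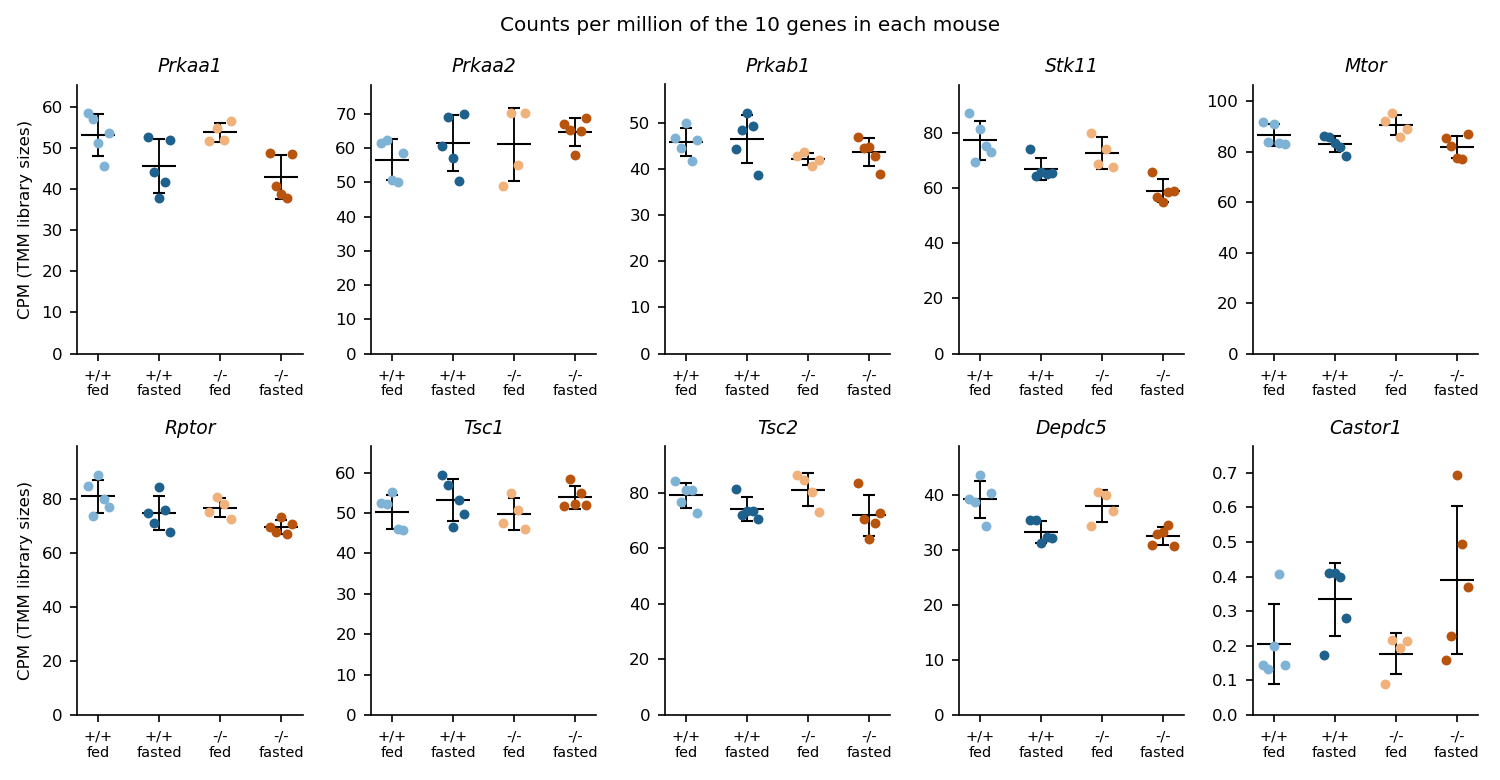
CPM of the 10 genes in each mouse, with the mean and SD of each group and each axis starting at 0. Stk11 and Prkaa1 in fasted NT-/- mice lie below each fed NT-/- mouse, and Castor1 does not exceed 0.694 CPM in any mouse.

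Markers of some cell types moved with fasting in the same libraries. All 6 villus enterocyte markers were higher for the average of both genotypes (median log2 fold change 1.15), with sums from 2856 to 6689 CPM in the 9 fed and from 5579.6 to 14544 CPM in the 10 fasted mice. All 5 markers of dividing progenitors were lower (median -0.53), with sums from 1409 to 1676 CPM in fed and from 822 to 1270.0 CPM in fasted mice, which did not overlap. Of 5 stem cell markers 2 were lower, of 5 goblet cell markers 3 were lower, and of 5 Paneth and 5 tuft cell markers 0 were called in either direction. Of 4 tested enteroendocrine markers 1 was higher, and of 6 immune cell markers 1 was lower. Over all tested genes, 19.2% were higher and 20.2% lower for the same average. In bulk crypt RNA, fewer cells of a type and less RNA per cell cannot be told apart. The part of these shifts in the differences of Stk11, Depdc5, Prkaa1 and the alpha subunit share was not tested.

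The second question was whether loss of neurotensin altered the genes in either diet. No gene of the set was found to be altered: 0 of 9 were called in ad libitum-fed and 0 of 9 in fasted mice by edgeR, and 0 by DESeq2, where 0.00559% of all tested genes, namely Nts alone, were called by edgeR in each diet. In neither diet did the genotypes stand apart without overlap for any of the 9 genes, as they did for 0.694% of all tested genes in fed and 1.56% in fasted mice. At an unadjusted p under 0.05 there were 0 of 9 in fed and 1 of 9 in fasted mice, where 299 and 1634 of the 17875 tested genes were. That one was Stk11, with a log2 fold change of -0.18 ± 0.07 in fasted NT-/- against fasted NT+/+ mice (unadjusted p = 0.0199, adjusted p = 0.428, edgeR). In ad libitum-fed mice the smallest p belonged to Prkab1 (-0.12 ± 0.08, adjusted p = 1). The 95% intervals of the 9 genes lay between -0.28 and 0.34 in fed and between -0.33 and 0.30 in fasted mice on the log2 scale. That of Stk11 in fasted mice ran from -0.33 to -0.03, which includes the size of its average fasting difference (-0.25).

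The effect of fasting was not found to differ between the genotypes for any of the genes. Tested as an interaction, 0 of the 9 genes and 0.0% of all tested genes passed in edgeR, with 0 of the 9 and 485 of all genes at an unadjusted p under 0.05, and DESeq2 called 0. The smallest p was that of Mtor (-0.09 ± 0.08, adjusted p = 1.00). The intervals of this difference ran from -0.40 to 0.30 on the log2 scale over the 9 genes.

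The wider pathway gave the frame for these values. A list of 85 genes around AMPK and mTOR, written by role, held 83 tested genes. Of the 74 outside the set of 10, 22 were higher and 17 lower with fasting for the average of both genotypes, together 52.7% against 39.4% of all tested genes, of which 19.2% were higher and 20.2% lower, with a median log2 fold change of 0.04. By role, 2 of 4 further AMPK subunit genes were higher and 0 lower. Prkag1, the gamma 1 subunit, rose by 0.12 on the log2 scale (adjusted p = 0.0484), and Prkag3, a gamma subunit best known from muscle, rose by 2.57 (adjusted p = 0.000104) from 2 to 9 counts per fed mouse to 6 to 73 per fasted mouse. Among 7 further genes of upstream kinases and their partners 1 was higher and 2 were lower. Cab39, the scaffold MO25 that holds liver kinase B1 active, rose by 0.29 (adjusted p = 0.000621), while its paralog Cab39l fell by 0.24 (adjusted p = 0.0101). This pair of paralogs thus moved in opposite directions.

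Of 9 further mTOR complex genes 2 were higher and 1 lower, together 33.3% against 39.4% of all tested genes. Prr5l, which belongs to mTOR complex 2 and not to mTORC1, rose by 1.42 (adjusted p = 1.04e-05), and Tti1, a cochaperone of mTOR and related kinases, fell by 0.32 (adjusted p = 0.000599). Of 3 genes beside Tsc1 and Tsc2, the Rheb-like GTPase gene Rhebl1 rose by 0.60 (adjusted p = 0.00817). The Rag, Ragulator and folliculin group was even, with 4 of 12 higher and 4 lower. Lamtor5, a Ragulator subunit, fell by 0.31 (adjusted p = 0.000167), and Rragd, a Rag GTPase, by 0.26 (adjusted p = 0.00120). Beside Depdc5, 5 of 11 GATOR and KICSTOR genes were lower and 1 higher, where 20.2% of all tested genes were lower and 19.2% higher. Nprl2, which is joined to Depdc5 in GATOR1, fell from means of 8.99 and 9.46 CPM in fed to 6.48 and 6.57 CPM in fasted NT+/+ and NT-/- mice (-0.50, adjusted p = 0.000466), and Seh1l, a GATOR2 subunit that is also a nuclear pore protein, by 0.29 (adjusted p = 0.000525).

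Of 8 amino acid sensor and stress genes, 4 were higher and 2 lower, where 19.2% of all tested genes were higher and 20.2% lower. Sar1b rose by 0.65 (adjusted p = 1.49e-06). It is a leucine sensor but also the coat GTPase of chylomicron export in enterocytes. The sestrin gene Sesn3 fell by 0.34 (adjusted p = 0.000187). Among 20 substrates 7 were higher and 3 lower, against the same shares of all tested genes. Acacb, the mitochondrial acetyl-CoA carboxylase that AMPK phosphorylates, rose from means of 10.1 and 8.15 CPM in fed to 52.4 and 40.1 CPM in fasted NT+/+ and NT-/- mice (2.33, adjusted p = 3.17e-09), and Eif4ebp3, a repressor of cap-dependent translation, from 5.39 and 4.59 to 13.0 and 15.3 CPM (1.51, adjusted p = 1.21e-06). Fed and fasted mice did not overlap for Acacb or Eif4ebp3 in either genotype. The same held for 14.6% of all tested genes in NT+/+ and 21.3% in NT-/- mice. Both differences were larger than those of the 9 tested genes of the set.

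**Figure D5:**
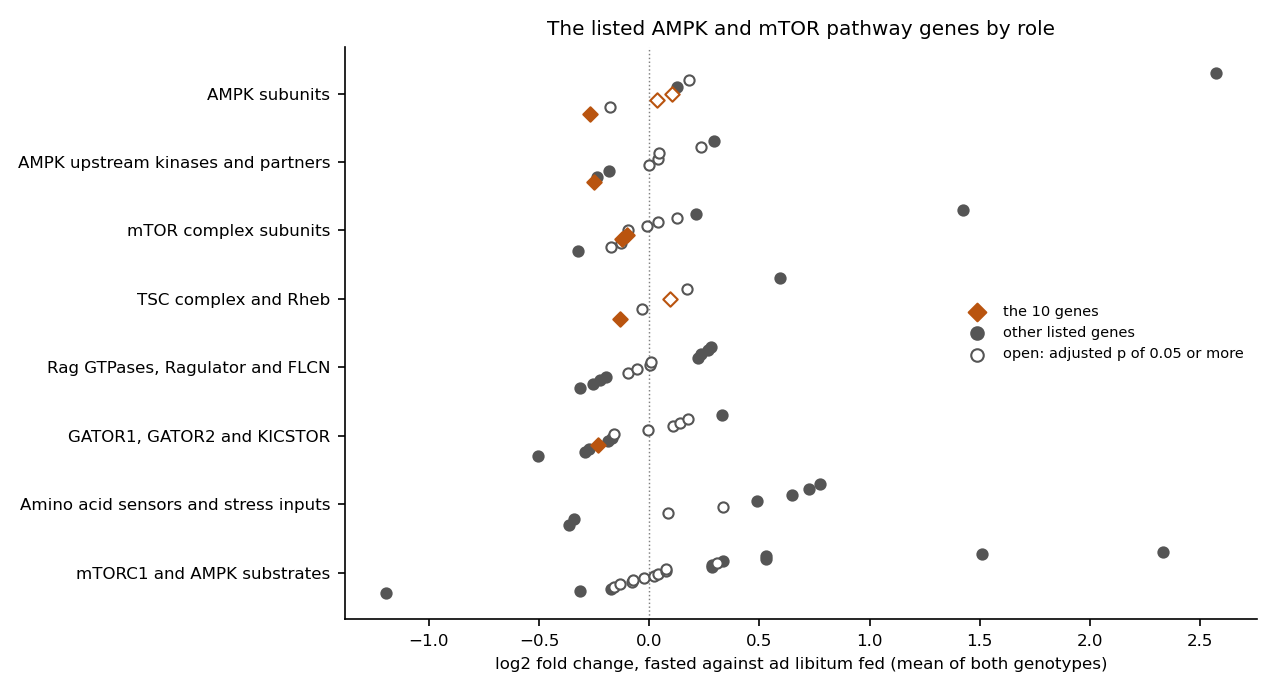
Log2 fold changes with fasting (mean of both genotypes) of the 83 tested pathway genes by role. Diamonds are genes of the set of 10, circles the other listed genes, and filled symbols have an adjusted p under 0.05; the diamonds lie between -0.27 and 0.10, and Prkag3 and Acacb lie farthest to the right at 2.57 and 2.33.

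The genes whose levels ran closest to those of Stk11, Depdc5 and Prkaa1 were found by Pearson's r of log2 CPM over the 19 mice, given as a description across mice that fall into 4 groups. For Stk11 they were the histone gene Hist1h4b (0.96), a member of a multi-copy family whose counts are uncertain, Dpp9 (0.95), a dipeptidyl peptidase, and Sympk (0.95), a scaffold of RNA 3′ end processing. For Prkaa1 they were Klhdc10 (0.93), Cd38 (0.93), an NAD-consuming enzyme, and Ptpn3 (0.93), a tyrosine phosphatase. Depdc5 had looser neighbors, namely Htt (0.87), the huntingtin gene, Alms1 (0.87) and Crybg3 (0.87). Among the 9 genes themselves, deviations from the group means correlated most between Stk11 and Tsc2 (r = 0.81) and between Tsc1 and Depdc5 (0.73), with a median of 0.20 over the 36 pairs. Stk11 and Tsc2 share the high values in the mice numbered 1.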

How the data were processed

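RNA from crypts of 19 mice was sequenced as single-end reads of ribosomal RNA-depleted libraries. Per the submitters' processing notes, reads were trimmed with Trimmomatic 0.39 and quantified with RSEM on GRCm38. The RSEM version and strand setting are not given in the sources used here. The authors deposited for each gene an expected count, which is not normalized, a TPM value and an effective length in bases. Authors' FPKM values were not used.

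Expected counts were rounded (13.1% were not whole), normalized with TMM and tested over the 17875 genes that passed filterByExpr with edgeR 4.0.16 (R 4.3.3), quasi-likelihood test, 1 coefficient per group, 15 residual degrees of freedom, Benjamini-Hochberg adjusted p under 0.05. The standard error is the absolute log2 fold change over the square root of F. The fit was tested on simulated data. CPM use TMM library sizes, and log2 CPM a prior count of 2. Subunit shares came from the deposited TPM, tested by exact permutation of mice. Of 55487 genes, 55141 had a symbol. Depth, 9059457 to 35068711 counts per mouse (median 18541819), limits genes such as Castor1. Alternatives were other filters, normalizations, DESeq2 1.42.0, blocks by replicate number, sex, label, the groups in the fit, and mice left out.

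Each library is 1 mouse; p values measure the spread between these mice. Titles and file names number the mice, differently in fed NT-/- mice. By the file names, mice with the same number deviated together in every pair (r over 0.1) for fasting in NT+/+ mice (0.165 to 0.499, 5 pairs) and NT-/- mice (0.123 to 0.379, 4 pairs) and for genotype in fed (0.117 to 0.342, 4 pairs) and fasted mice (0.124 to 0.453, 5 pairs), which was taken as pairing. By the titles this held for fasting in NT+/+ mice and genotype in fasted mice, and for 2 of 4 pairs in the other comparisons. Neither paper nor labels say what the numbers mark, but the sex labels followed the file-name numbers. Where sex was labeled, mice numbered 1, 2 and 4 there were female and those numbered 3 and 5 male. A block by that number therefore also takes up sex. By the titles, fed NT-/- mice 3 and 4 were of the other sex than the mice of their number in the other groups.

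Besides the 10 genes, the text names per role at most 2 listed genes with the smallest p among those called for fasting as the average of both genotypes, for the 3 genes of the set with the smallest p the 3 tested genes with the highest r, and the gene of the set with the smallest p in each genotype comparison. Nts checks the labels. The genes and lists were chosen with earlier results of these data known.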

Additional observations from a re-analysis of the deposited data

Results flagged for a closer look

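In 3 of 48 groups of values (10 genes and both subunit shares in 4 groups), 1 mouse lay apart from the rest by a gap that chance gives in about 1 group in 20. Stk11 in replicate 1 of the fasted NT+/+ group was at 74.1 CPM, with the next mouse at 66.1 CPM. Tsc2 in the same mouse was at 81.5 CPM, with the next at 73.4 CPM. Without this mouse's number in all 4 groups, the average log2 fold change with fasting was -0.23 for Stk11 and -0.14 for Tsc2. Castor1 in replicate 4 of the ad libitum-fed NT+/+ group was at 0.406 CPM, with the next mouse at 0.198 CPM.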

How the results depend on the processing

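Directions of the fasting effects of Stk11, Depdc5, Prkaa1, Mtor, Rptor, Tsc2 and Tsc1 held under each alternative run. The call of Stk11, Depdc5 and Prkaa1 for the average of both genotypes held under each as well. Single-gene calls changed elsewhere: 90 values lost and 9 gained the threshold and 3 turned direction, against 788 that kept both. Prkab1 in NT+/+ mice ran from -0.019 to 0.085 and Prkaa2 in NT-/- mice from -0.0064 to 0.16 on the log2 scale with 1 mouse left out. The cause of these changes was not tested.

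The count of lower genes in NT+/+ mice was 0 without a filter and 1 with DESeq2 size factors, a term for sex, NT+/+ Fast 5 counted as NT-/-, only the groups compared, or (chosen after seeing the data) the 4 libraries numbered 1 left out. It ran from 0 to 2 with 1 mouse left out, and was below 2 without NT+/+ AL 1, 3 or 4, NT-/- AL 2 or 3, NT+/+ Fast 2, 3, 4 or 5, or NT-/- Fast 2, 4 or 5. In NT-/- mice it was 6 with a replicate block by the files' own numbering, and 1 to 3 with 1 mouse left out. For the average it was 3 without a filter, with DESeq2 size factors, with DESeq2's Wald test and with NT+/+ Fast 5 counted as NT-/-, and 3 to 6 with 1 mouse left out (3 without NT+/+ AL 1 or 3, NT-/- AL 1 or 2, NT+/+ Fast 2, 4 or 5, or NT-/- Fast 2 or 4). Over all genes, genotype gave 0 calls in both diets with at least 10 counts in every mouse or with NT+/+ Fast 5 counted as NT-/-, 3 in fed and 101 in fasted mice with DESeq2's Wald test, 1 to 4 in fasted mice with 1 mouse left out (4 without NT-/- Fast 1), and 2 there without the libraries numbered 1.

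The replicate block by titles gave 5006, 5657 and 8148 called genes for fasting in NT+/+ mice, in NT-/- mice and on average, against 3862, 4499 and 7039 without it, and changed no call of the 9 tested genes but that of Prkaa1 in NT+/+ mice. Title numbers did not pair the NT-/- mice (2 of 4 pairs over 0.1, r from -0.065 to 0.38). The file-name numbers, which differ from the titles only in fed NT-/- mice, did (4 of 4, r from 0.12 to 0.38), and that block gave 5484, 5672 and 8252 called genes and added the calls of Prkaa1 in NT+/+ mice and of Mtor (adjusted p = 0.0436), Rptor (0.0272) and Tsc2 (0.0435) in NT-/- mice, and changed no other call of the 9 genes. Within pairs by titles the Prkaa2 share differed by 5.72 and 7.67 points in NT+/+ and NT-/- mice, with adjusted p of 0.375 in a design that cannot pass. With 1 mouse left out it differed by 4.77 to 6.70 and by 5.94 to 8.28 points. Without the libraries numbered 1 it differed by 6.63 and 6.55 points (exact permutation, adjusted p = 0.114). The unadjusted p was there the smallest that groups of these sizes can give. The Prkab2 share ran from -0.057 to 0.34 points for genotype in fed mice and from -0.40 to 0.13 points for fasting in NT-/- mice.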
